A study of Mus musculus with 4 samples.

Results

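The pentose phosphate pathway enzymes are 7 genes, G6pdx, Pgls, Pgd, Rpia, Rpe, Tkt and Taldo1, chosen by their symbols from the 39017 genes of the count table without use of their values, and 7 of 7 were found. Their transcripts were counted in 4 lung tumors from male KP mice, which served as the control tumors of a study of glucose uptake in lung cancer. The tumors form 1 group, with 1 library each, so levels were compared between genes and tumors and not between treatments. KP mice here were C57BL/6 animals with the alleles p53Fl/Fl, from which Cre removes Trp53. Per the labels every mouse received 1500 viral units of lenti.PGK-Cre through the trachea, whereas the study's methods give other doses for PGK-Cre vectors. Tumors were macrodissected at 22 weeks plus 5 days and dissociated before RNA extraction. The study's methods describe RNA from whole tumors and, in other cases, from PGK-Cre tumor fractions freed of immune (CD45+) cells. Which of these the 4 libraries hold was not established here. The PGK promoter is active in most cell types, so Cre was not limited to 1 lung cell type. Their genotype is labelled as heterozygous fl/wt with no gene named, whereas the log2 table heads the same samples WT. Controls in the study's methods were either wild type for Slc2a1 or had 1 floxed copy of it. Nothing in the labels says that the tumors came from separate mice, so the errors below measure the spread between these samples only.

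The pentose phosphate pathway branches from glycolysis at glucose-6-phosphate. Its oxidative branch releases carbon dioxide and makes NADPH, the reductant used for fatty acid synthesis and for keeping glutathione reduced, and it ends in ribulose-5-phosphate. The non-oxidative branch interconverts sugar phosphates without making NADPH, supplies ribose for nucleotides and connects the pathway back to glycolysis, and its reactions can run in either direction. Messenger RNA levels, which were measured here, do not give the flux through either branch.

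Total counts lay between 8151613 and 8799007 per tumor. Each member had between 238 and 2687 counts per tumor, so that counting error alone was 1.93% to 6.48% of a value. The 7 genes took 0.0764% of all counts in tumor 1 (95% Wilson interval 0.0746 to 0.0783), 0.0695% in tumor 2 (0.0678 to 0.0713), 0.0897% in tumor 3 (0.0877 to 0.0918) and 0.0598% in tumor 4 (0.0581 to 0.0614). Their share was thus highest in tumor 3 and lowest in tumor 4, and the 4 intervals did not overlap. Intervals cover counting error only, because each rests on the reads of 1 library, so their separation says nothing about spread between libraries. Reads carried no molecular identifiers, so copies of 1 molecule counted separately and the intervals can be too narrow. Levels are given as CPM, counts scaled to a library of 1e+06 counts after TMM scaling, and, where genes are compared with each other, as CPM per kilobase of the longest protein-coding transcript.

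The libraries carried the markers of their labelled tissue. Summed alveolar type 2 markers, such as the surfactant gene Sftpc, were at 31082 CPM in tumor 1 and between 50731 and 57870 CPM in the others, and epithelial markers at 2488 to 3972 CPM. Leukocyte markers were also present and highest in tumor 3, as given beside the results they touch. Trp53 was at 9.75 to 13.0 CPM. A gene-level count does not separate recombined from intact alleles or tumor cells from other cells.

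Promoter stretches of 3 members are shown because these genes had different highest tumors or the widest spread, and because a search for 3 common motifs found matches there. They were taken from the RefSeq windows of GRCm38.p6, which run from 250 bases before to 50 bases after a start, and 7 of 7 members had a window (8 windows in all, with 2 for Pgd). Capitals mark matches to TGACNNNGC, the core of the antioxidant response element, in G6pdx, to CCAAT in Pgd, and to GGGCGG, the GC box, in Tkt, where the matches are on the reverse strand. Each stretch is 30 bases long and read 5′ to 3′ on the strand of the gene.
G6pdx, chrX:74428918-74428947, minus strand, 67 to 38 bases before the start: aggcgggtcaGCTCAGTCAaagcacacgcc
Pgd, chr4:149166732-149166761, minus strand, 56 to 27 bases before the start: ccgcagagacCCAATagcgtggggcatcgg
Tkt, chr14:30549101-30549130, plus strand, 30 to 1 bases before the start: gcgccCCGCCCcacctCCGCCCCGCCCccc
The G6pdx match also lies on the reverse strand, and its stretch is part of the first exon of the longest GENCODE transcript, which starts farther upstream. The Pgd and Tkt stretches likewise lie inside the GENCODE bounds of their genes, so no stretch shown is outside its annotated gene. Both strands of every window were searched. TGACNNNGC was found in the windows of 2 members, G6pdx and Pgd, and in 12.4% of all 32851 windows. In Pgd it lay just past the start of the second window. CCAAT was found for 3 members, Pgd, Rpe and Taldo1, and in 37.4% of all windows. GGGCGG was found for all 7 members and in 35.7% of all windows. A match is a match of letters and no measured binding site.

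Transcripts of all 7 enzymes were detected in every tumor. On the CPM scale the mean levels ran from 33.5 for Pgls to 221 for Pgd, and 7 of 7 passed the filter of a mean of 1 CPM that left 14225 genes. Spread beyond counting noise was tested with a chi-square test of the 4 counts, adjusted by Benjamini-Hochberg over all 14225 genes. Among the members 6 of 7 passed it, against 76.7% of all genes tested and 91.2% of the 6369 genes at least as abundant as Pgls. The highest tumor was at least 1.5 times the lowest for 4 of 7 members, G6pdx, Pgd, Tkt and Taldo1. The share was 56.6% of all genes and 40.4% of those at least as abundant. For 0 of 7 the highest tumor was 2 times the lowest or more, against 28.1% of all genes, and Pgd came closest at 1.97 times. The share at 2 times was not determined for the abundant genes alone. The count at 1.5 times was 2 when tumor 1, tumor 3 or tumor 4 was left out. No member had 1 tumor apart from the other 3 by the Dixon ratio, which 5.86% of all genes had. The median SD of log2 CPM over the 7 genes was 0.27, beside 0.29 over all genes and 0.23 over the abundant ones, and the median biological coefficient of variation was 21.1%, beside 25.7% and 20.3%. The spread of the 7 genes lay near that of other genes.

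**Figure D1:**
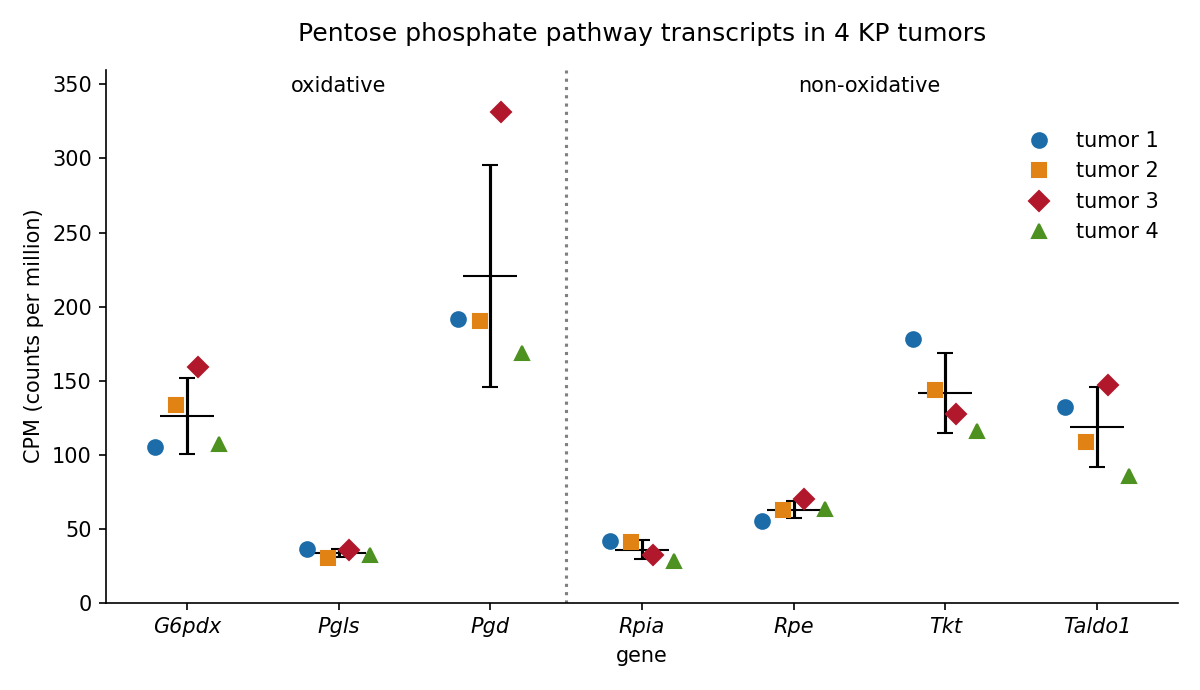
Level of each enzyme's transcript in CPM in the 4 tumors, with the oxidative branch left and the non-oxidative branch right of the dotted line. Colored points are single tumors, wide marks the mean and bars the SD (n = 4). For Pgd the tumor 3 value (332 CPM) stands above the other 3 (169 to 192 CPM), and for Pgls the 4 points nearly coincide (30.2 to 36.0 CPM).

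G6pdx encodes glucose-6-phosphate dehydrogenase, which catalyzes the committed, NADPH-forming step of the pathway. It lies at chrX:74409483-74429194 on the minus strand, and its longest coding transcript has 13 exons. Its level was 105 CPM in tumor 1, 133 in tumor 2, 159 in tumor 3 and 107 in tumor 4 (126 ± 25.5, SD, n = 4). Tumors 1 and 4 were alike, and tumor 3 was the highest, 1.52 times tumor 1. Ikbkg, a gene of NF-kappaB signaling, covers the whole locus on the opposite strand and was also highest in tumor 3 (83.2, 104, 212 and 101 CPM in tumors 1 to 4). It shares 132 nt with the G6pdx coding transcript, and reads there are told apart only by strand, whose setting in the counting is not given in the sources used here.

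Pgls encodes 6-phosphogluconolactonase, which opens the lactone that the dehydrogenase makes. It lies at chr8:71592176-71601092 on the plus strand, with 5 exons in its coding transcript. It was at 36.0, 30.2, 35.7 and 32.4 CPM in tumors 1 to 4 (33.5 ± 2.77, SD, n = 4). These values span 1.19 times, and Pgls was the 1 member that did not pass the chi-square test (adjusted p = 0.139, Benjamini-Hochberg over the genes fitted with TMM sizes from edgeR). Fam129c, which overlaps its 3′ part on the same strand, was at 2.20, 1.28, 2.47 and 2.50 CPM.

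Pgd encodes phosphogluconate dehydrogenase, which makes the second NADPH and ribulose-5-phosphate, and lies at chr4:149149991-149166771 on the minus strand, with 13 exons. Over the 4 tumors it was the most variable member. Pgd stood at 192 CPM in tumor 1, 191 in tumor 2, 332 in tumor 3 and 169 in tumor 4 (221 ± 74.7, SD, n = 4). The tumor 3 value was 0.85 above the mean of the others on the log2 scale, and the other 3 lay within 1.14 times of each other, against 1.97 times with tumor 3. Its Dixon ratio of 0.809 stayed below the limit for 4 values. In log2 CPM its SD was 0.44, the highest of the 7, and rested on tumor 3, without which it was 0.10, the lowest of the 7.

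Rpia encodes ribose-5-phosphate isomerase, which yields the ribose phosphate used for nucleotides. It lies at chr6:70765720-70792232 on the minus strand, with 9 exons. Its levels were 41.4, 40.8, 32.5 and 28.3 CPM in tumors 1 to 4 (35.7 ± 6.41, SD, n = 4). Tumors 1 and 2 were alike and stood above tumors 3 and 4, with a span of 1.46 times.

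Rpe, the ribulose-phosphate epimerase that forms xylulose-5-phosphate, lies at chr1:66700831-66719805 on the plus strand, with 7 exons. It was at 55.2, 62.6, 69.7 and 63.4 CPM in tumors 1 to 4 (62.7 ± 5.93, SD, n = 4), a span of 1.26 times with tumor 3 highest and tumor 1 lowest. Its chi-square call (adjusted p = 0.00352, Benjamini-Hochberg, TMM sizes from edgeR) was lost without tumor 1 (adjusted p = 0.183) and without tumor 3 (adjusted p = 0.0773). Kansl1l overlaps the end of Rpe by 558 nt on the opposite strand and had another pattern, lowest in tumor 3 (62.4, 62.7, 57.0 and 76.6 CPM).

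Tkt encodes transketolase, which moves carbon units between sugar phosphates and uses thiamine diphosphate. It lies at chr14:30548359-30574720 on the plus strand, with 14 exons. Tkt was at 178 CPM in tumor 1, 143 in tumor 2, 127 in tumor 3 and 116 in tumor 4 (141 ± 27.0, SD, n = 4). Tumor 1 was the highest, and without it the span of 1.53 times became 1.23 times. In each of tumors 2, 3 and 4 Tkt was lower than in tumor 1, whereas Rpe was higher there. G6pdx was higher in tumors 2 and 3 than in tumor 1 and alike in tumors 1 and 4.

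Taldo1 encodes transaldolase, the partner of transketolase in the non-oxidative branch, and lies at chr7:141392199-141402968 on the plus strand, with 9 exons. It was at 132, 108, 147 and 85.5 CPM in tumors 1 to 4 (118 ± 27.0, SD, n = 4). Tumor 4 was the lowest and tumor 3 the highest, 1.72 times as high. A processed pseudogene on another chromosome, Gm17823, shares a stretch of 309 nt with a Taldo1 transcript but none with its longest coding one.

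The members fell into 2 sets by the tumor in which they were highest. G6pdx, Pgd, Rpe and Taldo1 (4 of 7) were highest in tumor 3, as were 30.1% of all genes tested. Pgls, Rpia and Tkt (3 of 7) were highest in tumor 1, as were 31.4% of all genes. Pgd, Rpia, Tkt and Taldo1 (4 of 7) were lowest in tumor 4, as were 17.7% of all genes. The first set held members of both branches. The second held Tkt and Rpia of the non-oxidative branch and Pgls, whose values in tumors 1 and 3 (36.0 and 35.7 CPM) differed by less than counting error. Ratios between members moved accordingly, and the ratio of Pgd to Tkt per kilobase was 1.56, 1.93, 3.78 and 2.11 in tumors 1 to 4, a span of 2.42 times. For G6pdx to Tkt it was 0.715, 1.13, 1.52 and 1.12.

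**Figure D2:**
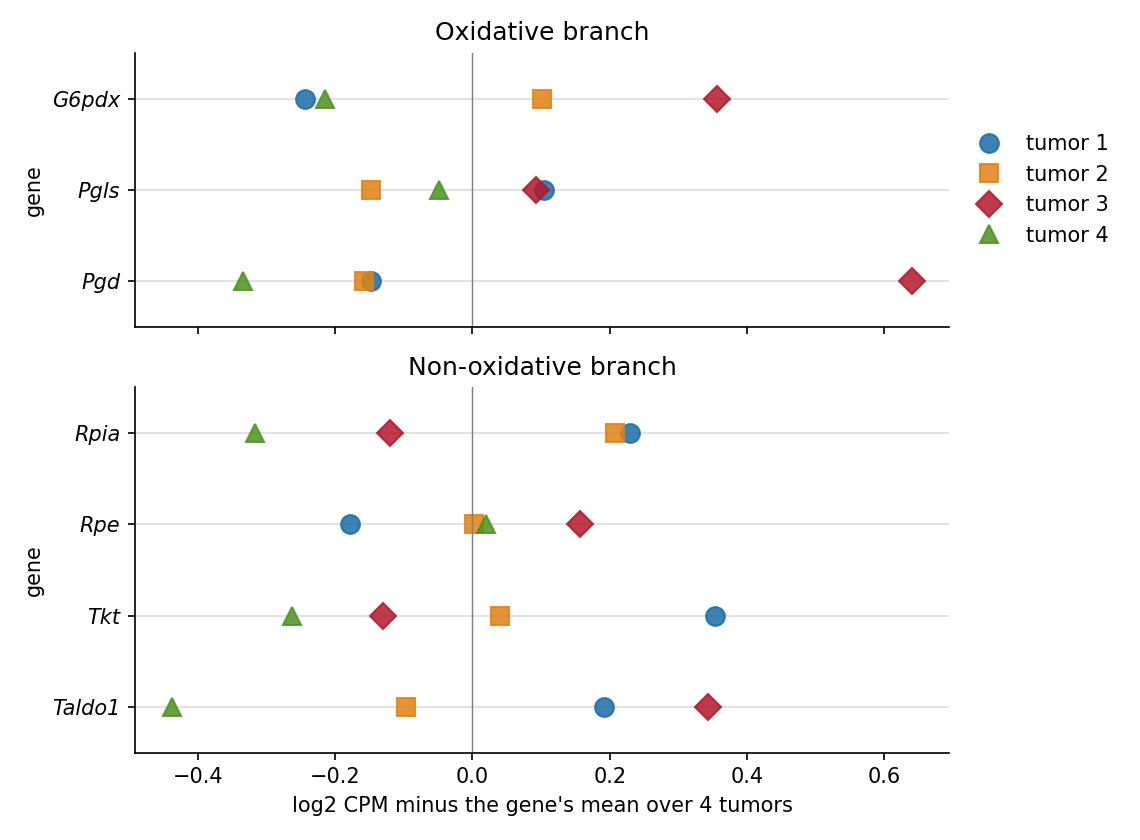
Level of each enzyme in each tumor on the x axis, as log2 CPM minus the mean of that gene over the 4 tumors, with 1 line of points per gene and the branches in separate panels. Pgd in tumor 3 lies farthest from its mean. Tkt and Rpia lie above their mean in tumors 1 and 2 and below it in tumors 3 and 4, and Taldo1 lies highest in tumor 3 and lowest in tumor 4.

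Summed markers of several cell types were highest in tumor 3 or tumor 1, as were the members. The pan-leukocyte sum was lowest in tumor 1, as were G6pdx and Rpe, whereas Pgd and Taldo1 were lowest in tumor 4. Pan-leukocyte markers summed to 104, 124, 252 and 144 CPM in tumors 1 to 4, with 4 of 4 genes highest in tumor 3, and macrophage markers to 148, 165, 248 and 169 CPM, with 4 of 5 highest there. Alveolar macrophage markers summed to 187, 221, 861 and 410 CPM (3 of 4 highest in tumor 3), T cell markers to 2.53, 3.37, 18.3 and 3.45 CPM (all 3 tested genes highest in tumor 3) and neutrophil markers to 27.2, 31.2, 37.5 and 17.5 CPM (2 of 4). Proliferation markers summed to 576, 464, 454 and 382 CPM, the order of tumors also seen for Tkt and Rpia, and 4 of 5 were highest in tumor 1. Top2a and Ccnb1 had this order themselves. Mki67 (228, 189, 215 and 178 CPM), Cdk1 and Bub1 had other orders. Also highest in tumor 3 were the summed markers of club cells (36.4, 594, 878 and 521 CPM) and endothelial cells (168, 169, 215 and 166 CPM). The same held for ciliated cells (17.5, 14.4, 29.5 and 27.4 CPM), red blood cells (23.3, 15.3, 34.9 and 20.6 CPM) and B cells (1.21, 1.51, 4.94 and 2.85 CPM). Of the genes, 2 of 3 for club, 2 of 4 for endothelial, 1 of 3 for ciliated and 3 of 3 for red blood cells were highest there. For B cells 0 of 3 genes passed the filter. Summed epithelial markers were highest in tumor 1 (3972, 2587, 2488 and 2632 CPM), with 3 of 4 genes highest there and Epcam lowest in tumor 3 (600, 470, 218 and 371 CPM). Fibroblast markers summed to 348, 253, 338 and 182 CPM, with Col1a1 and Col1a2 highest in tumor 1 and Dcn and Pdgfra in tumor 3. No gene of these lists was at 0 in all tumors. Whether immune cells had been removed was not established, so these sums need not give the immune content of the tumors. The part of these cells in the enzyme levels was not tested. In RNA pooled from many cells, fewer cells of a type and less RNA per cell cannot be told apart.

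On the scale of CPM per kilobase the order of the levels was Pgd, Taldo1, G6pdx, Tkt, Pgls, Rpe and Rpia. Mean levels were 99.5 ± 33.7 for Pgd, 86.9 ± 19.9 for Taldo1, 47.5 ± 9.62 for G6pdx and 43.8 ± 8.39 for Tkt (SD, n = 4). The remaining 3 were at 31.6 ± 2.61 for Pgls, 23.1 ± 2.19 for Rpe and 19.5 ± 3.50 for Rpia. Of the 6 neighboring pairs 3 kept their order in 4 of 4 tumors. Taldo1 exceeded G6pdx by 0.86 ± 0.31 log2 units, Tkt exceeded Pgls by 0.46 ± 0.25 and Pgls exceeded Rpe by 0.45 ± 0.19 (SD, n = 4; exact two-sided permutation test by flipping signs, each adjusted p = 0.25 over the 6 pairs). With 4 tumors no p of this test can pass 0.05, even where all signs are alike. Pgd against Taldo1 (0.17 ± 0.27), G6pdx against Tkt (0.11 ± 0.45) and Rpe against Rpia (0.26 ± 0.37) differed by less than their spread, and in each tumor 1 had the opposite order. Without tumor 1, 6 of 6 pairs kept their order. Of all 21 pairs of members, 18 had the same order in every tumor.

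The length taken for each gene moved the order. With the coding sequence alone Rpe came after Taldo1 and before G6pdx. With the longest annotated transcript of any kind, which for Pgls, Pgd and Rpia keeps introns, Taldo1 came first and Pgd followed.

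**Figure D3:**
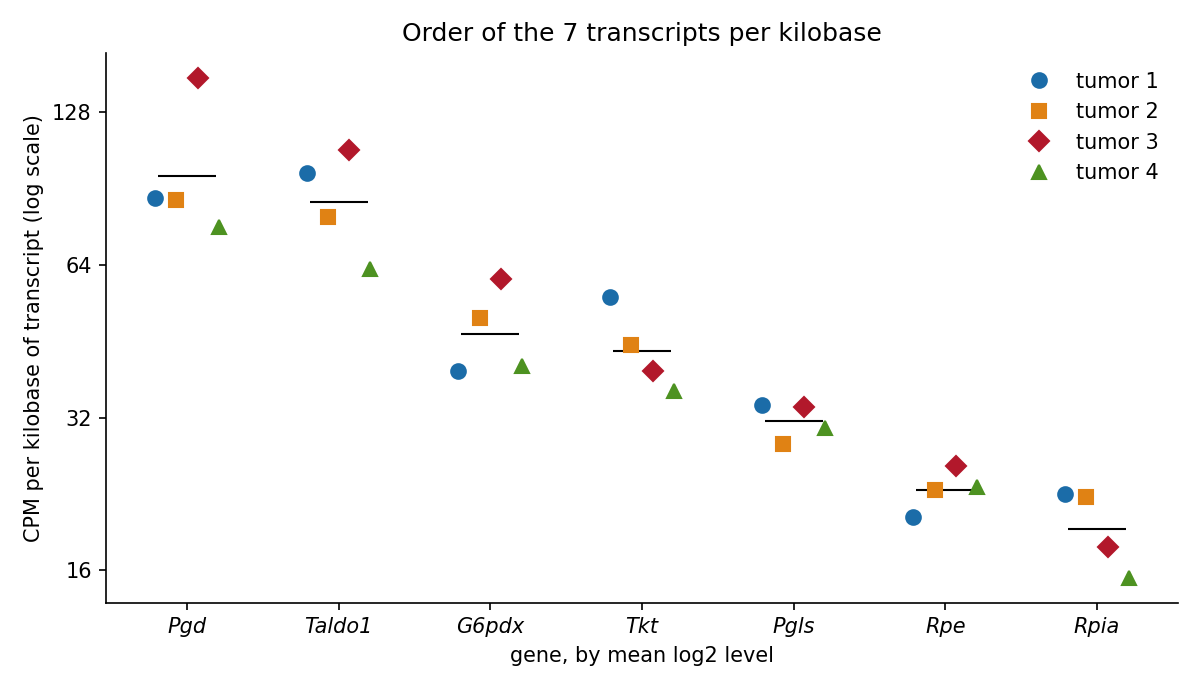
CPM per kilobase of the longest protein-coding transcript, on a log scale, for the 7 enzymes in order of their mean log2 level. Colored points are single tumors and black marks the geometric mean (n = 4). The points of neighboring genes overlap for Pgd and Taldo1, for G6pdx and Tkt and for Rpe and Rpia, and not for the 3 other pairs.

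Summed over the genes of each branch, the oxidative enzymes were at 160, 165, 243 and 147 CPM per kilobase in tumors 1 to 4 (179 ± 43.6, SD, n = 4). The non-oxidative enzymes were at 195, 169, 191 and 138 (173 ± 26.4). The ratio of the branches was 0.818 in tumor 1, 0.971 in tumor 2, 1.27 in tumor 3 and 1.07 in tumor 4, so that the oxidative sum was the higher one in 2 of 4 tumors. The mean log2 difference of 0.03 ± 0.27 was smaller than its spread (p = 0.75, exact two-sided sign-flip permutation test). Its sign depended on tumor 3 and on the gene length, with a mean of -0.08 without tumor 3, -0.17 with coding lengths and -0.46 with the longest annotated transcript, and with the mean of the log2 values in place of the sum it was 0.54. What did not depend on the length was the rank of the tumors, since tumor 3 had the highest ratio under all 5 ways of measuring it.

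**Figure D4:**
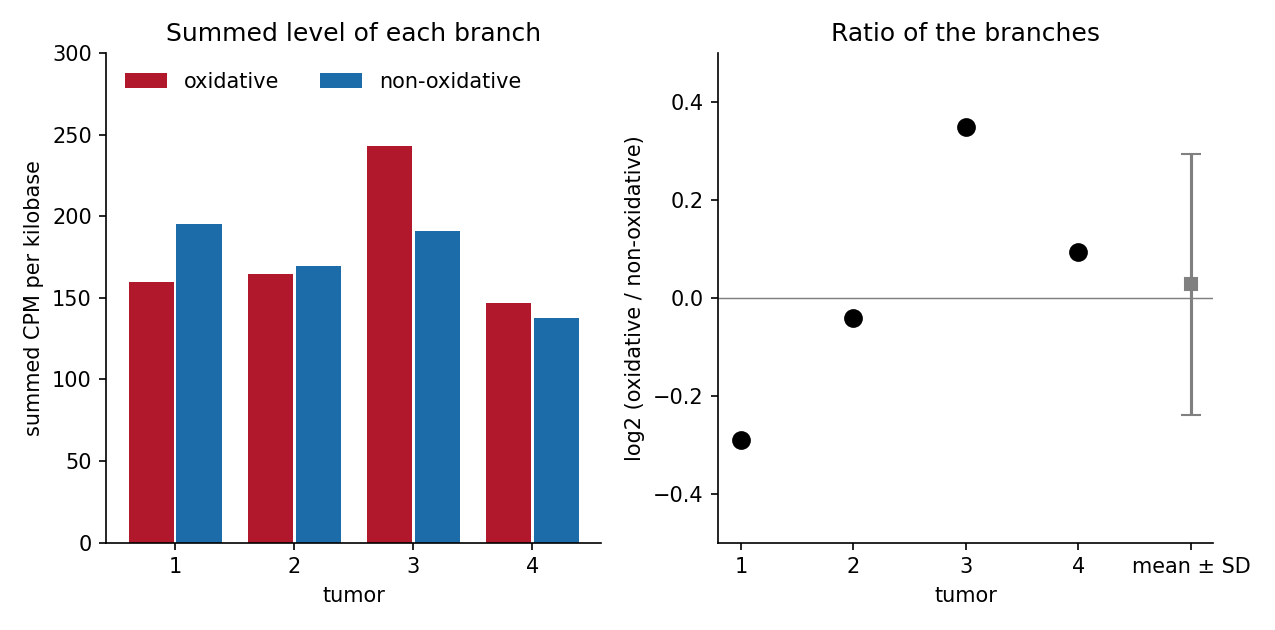
Left, summed CPM per kilobase of the 3 oxidative (red) and 4 non-oxidative (blue) enzymes in each tumor. Right, log2 ratio of these sums per tumor as points, with the mean and SD as a square and bar (n = 4). The ratio runs from -0.29 in tumor 1 to 0.35 in tumor 3 around a mean of 0.03.

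G6pdx and Pgd were set against the other cytosolic enzymes that make NADPH, malic enzyme (Me1), isocitrate dehydrogenase (Idh1) and the folate enzymes Mthfd1 and Aldh1l1. The pair summed to 126, 136, 209 and 116 CPM per kilobase in tumors 1 to 4 and the 4 other enzymes to 427, 523, 455 and 380. The pair was lower in 4 of 4 tumors, with a ratio of 0.296, 0.260, 0.461 and 0.306. On the log2 scale the difference was -1.63 ± 0.36 (SD, n = 4, and all signs being alike gives the smallest p that the exact permutation test allows with 4 tumors, which is above 0.05). Most of the other sum came from Me1, at 460, 792, 520 and 511 CPM, and Idh1, at 558, 528, 559 and 407 CPM. Mthfd1 was at 141 to 172 CPM and Aldh1l1 at 3.09 to 7.32 CPM.

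Among all 10 other NADPH-forming genes, 9 passed the filter, and Me3 was near the limit of detection. Of these 9, 8 varied beyond counting noise, 4 spanned 1.5 times or more and 2 were highest in tumor 3, beside 76.7%, 56.6% and 30.1% of all genes tested. The mitochondrial enzymes Idh2 (148, 146 and 178 CPM in tumors 2 to 4) and Mthfd2 (52.2, 51.1, 26.8 and 37.0 CPM in tumors 1 to 4) were lowest in tumor 3, where Pgd was highest, and Idh2 was highest in tumor 1 at 199 CPM. Nnt, the mitochondrial transhydrogenase, spanned only 51.3 to 60.5 CPM, and Mthfd2l 12.8 to 15.5 CPM. Aldh1l2 was highest in tumor 4, at 16.8 CPM against 7.81 to 10.6 CPM in the others.

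Genes around the pathway were read from a list of 17. The paralogs G6pd2, Tktl1 and Tktl2 and the testis form of ribose phosphate synthetase, Prps1l1, had 0 counts in every tumor, which allows up to 0.330 to 0.370 CPM each. Of the 13 others, 11 varied beyond counting noise, 9 spanned 1.5 times or more, 3 spanned 2 times or more and 8 were highest in tumor 3, beside 76.7%, 56.6%, 28.1% and 30.1% of all genes tested. Prps1 and Prps2, which turn ribose phosphate into the precursor of nucleotides, were highest in tumor 3, at 38.8, 46.5, 64.2 and 42.2 CPM for Prps1 and at 214, 318, 404 and 234 CPM for Prps2. Their associated proteins had other patterns, with Prpsap1 at 33.9 to 50.1 CPM and highest in tumor 1 and Prpsap2 at 12.9 to 26.5 CPM and highest in tumor 2. H6pd, the enzyme that runs the first oxidative steps inside the endoplasmic reticulum, was at 304, 410, 304 and 349 CPM. Per kilobase H6pd was at 64.1, 86.4, 64.1 and 73.5 CPM in tumors 1 to 4 and G6pdx at 39.5, 50.2, 60.0 and 40.4, so that H6pd was the higher in 4 of 4.

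Gpi1, the glycolytic isomerase that competes for glucose-6-phosphate, was at 606 CPM in tumor 1 and at 389 to 418 CPM in the others. Pgm2 was highest in tumor 3, at 189 CPM against 114 to 152. Tigar, whose product lowers glycolysis in favor of the pathway, spanned 17.4 to 24.7 CPM. Dera, which breaks down deoxyribose phosphate, was at 33.5, 29.5, 22.0 and 21.4 CPM, and Idnk, a gluconate kinase, at 13.4 to 18.1 CPM. Of the scarce genes, Rbks (ribokinase) was at 1.43, 2.09, 3.33 and 1.78 CPM and Rgn at 0.990, 1.74, 3.21 and 1.07 CPM, both with tumor 3 highest. Rbks (adjusted p = 0.0581) and Idnk (adjusted p = 0.0539) were the 2 genes that did not pass the chi-square test with TMM sizes from edgeR.

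**Figure D5:**
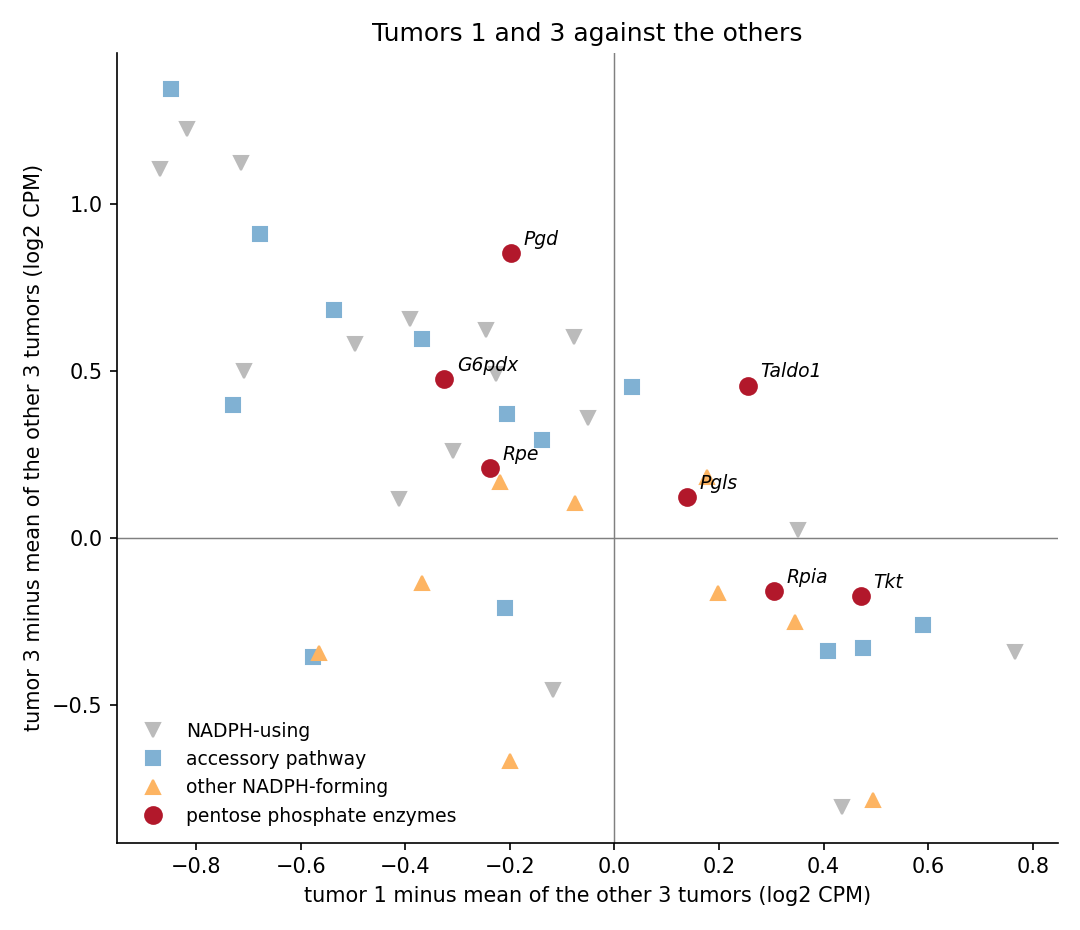
Each point is a gene that passed the filter, with its log2 CPM in tumor 1 minus the mean of the other 3 tumors on the x axis and the same for tumor 3 on the y axis. Red circles are the 7 enzymes and other markers the accessory, NADPH-forming and NADPH-using lists. Pgd, at 0.85 on the y axis, lies highest among the 7, and Tkt (0.47 on the x axis) farthest right among them.

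Pgd, as the most variable member, was compared with the 10268 other genes at a mean of 10 CPM or more by the root mean square difference of their centered log2 CPM over 4 tumors, on which a gene with the same level in every tumor differs from Pgd by 0.38. The 5 closest were Vcp (0.02), Apool (0.05), Ctsd (0.05), Pde2a (0.05) and Cpne8 (0.05). Vcp, an ATPase that extracts proteins for degradation, was at 263, 258, 447 and 222 CPM in tumors 1 to 4, and Ctsd, a lysosomal protease, at 1516, 1446, 2421 and 1214 CPM. Among the members G6pdx was at place 380 in this order, Taldo1 at 614 and Tkt at 5886. The order is a description of these 4 libraries.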

How the data were processed

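RNA of 4 tumors was sequenced from stranded, polyadenylated libraries made from 500 ng of total RNA. Per the study's methods, reads were trimmed with Cutadapt and aligned with HISAT2 to mm10. The submitters' processing notes also list bcl2fastq 2.17, cutadapt 1.4.2, featureCounts 1.4.4 and edgeR. The annotation release and strand setting are not given in the sources used here. The authors deposited raw counts per Ensembl gene, as a combined table and a table per tumor, and 156068 of 156068 values were equal. They also deposited log2 normalised counts (TMM and voom), used here as an alternative, which differed from recomputed values by at most 0.0370.

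CPM uses TMM effective library sizes (edgeR 4.0.16, R 4.3.3), and log2 CPM adds 0.5 to the count and 1 to the size. Genes at a mean CPM of at least 1 were tested, by a chi-square test of 4 counts against Poisson expectations (3 degrees of freedom, Benjamini-Hochberg, threshold 0.05) checked on simulated data. For the biological coefficient of variation, the root of the tagwise dispersion from edgeR was used. Log2 differences between genes used exact sign-flip permutation tests (SciPy 1.17.1). A count of 0 allows up to 3 counts. Positions, overlaps and lengths are from the GENCODE M21 annotation of GRCm38, with shared stretches (at least 80 nt at 97% identity) found by BLAST 2.17.0. The longest protein-coding transcript was taken as the length after reading the annotation, because the longest transcript of Pgls, Pgd and Rpia keeps introns, and the longest of any kind is an alternative added then.

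The members were taken by symbol without use of their values. Earlier results of these data were nevertheless known when the members and gene lists were chosen, so the list counts are not blind to them. Named were the 7 members, accessory and NADPH-forming genes at a mean of 10 CPM or a span of 2 times, the 5 genes closest to the most variable member, copies of members, and Trp53. Another gene that the rule names is not reported here. Overlapping genes and Me3 were added after their values were seen. All 120 list entries were matched, 5 by identifier. Alternatives were other size factors (DESeq2 1.42.0), other filters, pseudocounts, lengths and adjustments, and leaving out each tumor.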

Additional observations from a re-analysis of the deposited data

Results flagged for a closer look

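Of 31 results tested by the Dixon ratio over the 4 tumors, 1 had a tumor apart from the others. Gpi1 stood at 606 CPM in tumor 1, with the other 3 tumors at 389 to 418 CPM and a ratio of 0.841, past the limit for 4 values. Normal noise passes this limit in 5% of results, so 1 of 31 is near the number that chance gives.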

How the results depend on the processing

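Of 75 values that answer a comparison, recomputed under the alternatives, 66 kept their direction and, for counts and medians, stayed within 1.5 times of the reported value, 6 moved farther and 3 reversed. Of 98 recomputed means and SDs of members, 4 SDs of log2 CPM changed by more than 1.5 times, to 0.10 for Pgd without tumor 3, 0.086 for Rpe and 0.15 for Tkt without tumor 1 and 0.22 for Taldo1 without tumor 4. The reversed value was the log2 difference of the branches, which was 0.03 as reported and ranged from -0.0795 to 0.13 as each tumor was left out. It was -0.17 with coding lengths and -0.46 with the longest annotated transcript, an alternative added after seeing the annotation. With the mean of the log2 values in place of the sum it kept its sign but was 0.54. The ratio of the branches was then 1.23 to 1.79 over the 4 tumors, against 0.573 to 0.903 with the longest annotated transcript. The members spanning 1.5 times or more numbered 2 to 4 of 7 as each tumor was left out, and 0 reached 2 times. Neighboring pairs with a constant order numbered 3 to 6 of 6 as each tumor was left out and 5 with the longest annotated transcript. The number of members varying beyond counting noise was 5 without tumor 1, without tumor 3 or with Holm adjustment, and 7 with unscaled library sizes. The difference between G6pdx with Pgd and the other cytosolic NADPH-forming enzymes kept its sign in each of its alternatives. Where no cause is shown by the alternative's own construction, the cause was not tested. No paired analysis was possible because the design has 1 group. With 4 tumors no exact test could pass 0.05, and levels below 0.330 to 0.370 CPM were not detectable.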

Other observations

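Genes that use NADPH were read from a list of 16, all of which passed the filter. Of these, 14 varied beyond counting noise (76.7% of all genes did), 14 spanned 1.5 times or more (56.6% of all genes) and 9 were highest in tumor 3 (30.1% of all genes). The examples named here were chosen after their values were seen. Gsr, which reduces glutathione, was at 82.4, 107, 144 and 102 CPM in tumors 1 to 4, the order of tumors also seen for G6pdx. Cybb, a subunit of the phagocyte NADPH oxidase, was at 28.7, 40.2, 83.2 and 38.9 CPM. Leukocyte markers were highest in the same tumor, and their part was not tested. Fasn, the fatty acid synthase, was highest in tumor 2, at 914 CPM against 489 to 584 CPM, as was Me1, and Por was lowest in tumor 3, at 68.1 CPM against 109 to 130 CPM.

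A list of 8 genes held Nfe2l2 and Keap1 beside genes of the NRF2 response. Of these 8, 8 varied beyond counting noise (76.7% of all genes did) and 5 were highest in tumor 3 (30.1% of all genes). Keap1 was highest in tumor 2 and lowest in tumor 3, at 28.5 CPM. Pan-leukocyte markers (104, 124, 252 and 144 CPM in tumors 1 to 4) and alveolar macrophage markers (187, 221, 861 and 410 CPM) were highest in the same tumor, and their part was not tested. Nqo1 was at 2.09, 4.88, 10.9 and 3.81 CPM, Slc7a11 at 10.9, 15.4, 31.0 and 11.1 CPM and Hmox1 at 58.2, 91.9, 139 and 61.7 CPM. Gclc was lowest in tumor 1 (288 CPM) and highest in tumor 3 (708 CPM), whereas Gclm spanned only 51.2 to 66.7 CPM and was lowest in tumor 3. Nfe2l2, which encodes NRF2, was at 387 to 486 CPM and highest in tumor 4. Of the 4 hexokinase genes, which make glucose-6-phosphate, 3 passed the filter and 2 varied beyond counting noise. Hk1 was highest in tumor 3 (106 CPM against 64.3 to 74.6 CPM), and Hk2 was lowest in tumor 4 (111 CPM against 141 to 148 CPM).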
